A study of Mus musculus with 6 samples.

Results

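The genes described here make, break down and carry adenosine: Nt5e and Entpd2, which act outside the cell, the transporters Slc28a2 and Slc29a1, the enzymes Ada and Pnp of adenosine breakdown, the kinase Adk, the hydrolase Ahcy, and the AMP deaminases Ampd2 and Ampd3. They were taken by gene name, with earlier results of these data known, and number 10 of the 54532 genes in the deposited files, with 1 row each. RNA came from intestine of newborn C57BL/6 mice, an inbred strain, in 3 libraries treated with NECA for 5 days and 3 libraries treated with DMSO. NECA is a synthetic analogue of adenosine that activates adenosine receptors, and DMSO is its solvent. The labels name no genetic change. They leave out the stretch of bowel, the route and dose of NECA and the number of animals behind each library, so a p-value here measures only how far the libraries scatter, and some of that scatter may be technical. The series title sets the comparison within work on adenosine, necrotizing enterocolitis and suppressor cells of the myeloid lineage in newborns.

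Adenosine outside cells is formed when ATP and ADP are cut down to AMP by membrane ectonucleotidases and AMP is then cut by CD73, the product of Nt5e. It acts on its receptors until transporters carry it into cells, where adenosine kinase turns it back into AMP or adenosine deaminase turns it into inosine. In mice, adenosine deaminase is known for a high level in the epithelium of the duodenum, so its RNA may depend on which stretch of bowel was sampled. Whether this holds in newborn intestine was not tested here.

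The libraries held 15917018 to 18065078 counts in NECA and 15531996 to 17922697 counts in DMSO, and the 10 genes had between 61 and 5813 counts in any library. Epithelial markers (10 of 10 detected) summed to 7593 to 10957 CPM in NECA and 5819 to 8083 CPM in DMSO. CPM is a count scaled to the size of the library, here by the trimmed mean of M values (TMM). Of 6 stomach markers 4 were at 0 in every library. NECA replicate 2 stood apart. Its 10 proximal markers summed to 365 CPM, against 3224 to 4171 CPM in the other libraries of both groups, and its 8 ileal markers to 3082 CPM, against 437 to 903 CPM. The other libraries were not alike in this respect. Their ileal sums were 903 CPM in NECA replicate 3 and 790 CPM in DMSO replicate 3. Those of NECA replicate 1, DMSO replicate 1 and DMSO replicate 2 were 528, 454 and 437 CPM. NECA replicate 2 was the highest or the lowest of the 6 libraries in 7 of the 10 adenosine genes. DMSO replicate 2 differed in other measures, with 8.39% of its counts from mitochondrial genes, against 1.31% to 4.49% in the other libraries, and a sum of 5713 CPM over 6 smooth muscle markers, against 2264 to 2983 CPM.

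Ada was the gene of adenosine turnover in which the groups lay farthest apart, with less RNA in NECA. In the quasi-likelihood test of edgeR, adjusted by Benjamini-Hochberg over 15847 genes, 0 of the 10 passed an adjusted p of 0.05, as did 0% of all genes. At an unadjusted p under 0.05 the count was 1 of 10, Ada, against 5.48% of all genes. DESeq2 called 1 of 10, again Ada, against 0.0333% of all genes in either direction and 0.0259% with NECA lower. NECA and DMSO libraries were fully apart in 2 of the 10, Ada and Pnp, both with NECA below, against 7.16% of all genes with NECA below. Of the 10 genes 4 were lower in NECA, against 51% of all genes, and 6 higher. Their median log2 fold change was 0.12, and that of all tested genes -0.01. The ranges below are 95% intervals of the log2 fold change (NECA over DMSO) from the edgeR fit.

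**Figure D1:**
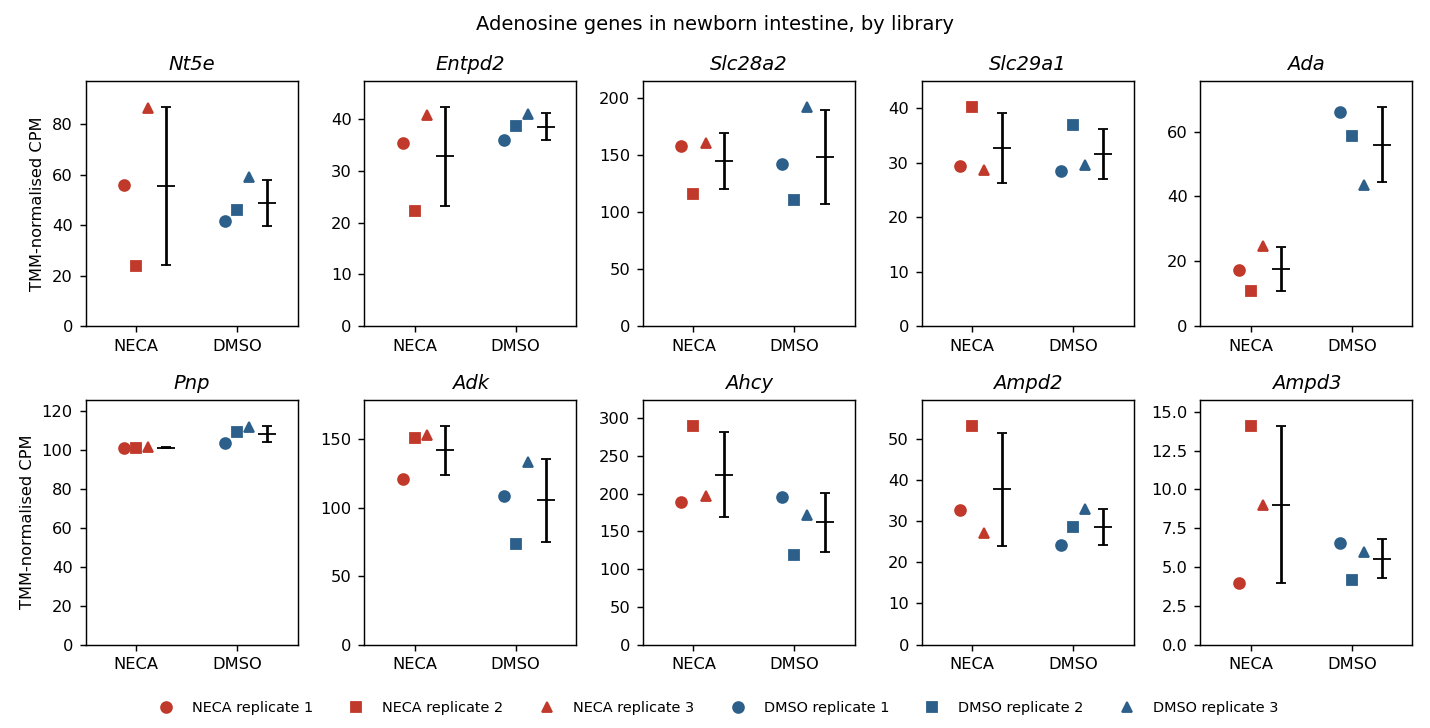
TMM-normalised CPM (y axis, from 0) of the 10 adenosine genes in each library, NECA left and DMSO right. Symbols mark the replicate, and the black bar beside each group is the mean with its SD (n = 3 per group). Ada is lower in each of the 3 NECA libraries than in any DMSO library, and NECA replicate 2 (red square) lies at an edge of most panels.

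**Figure D2:**
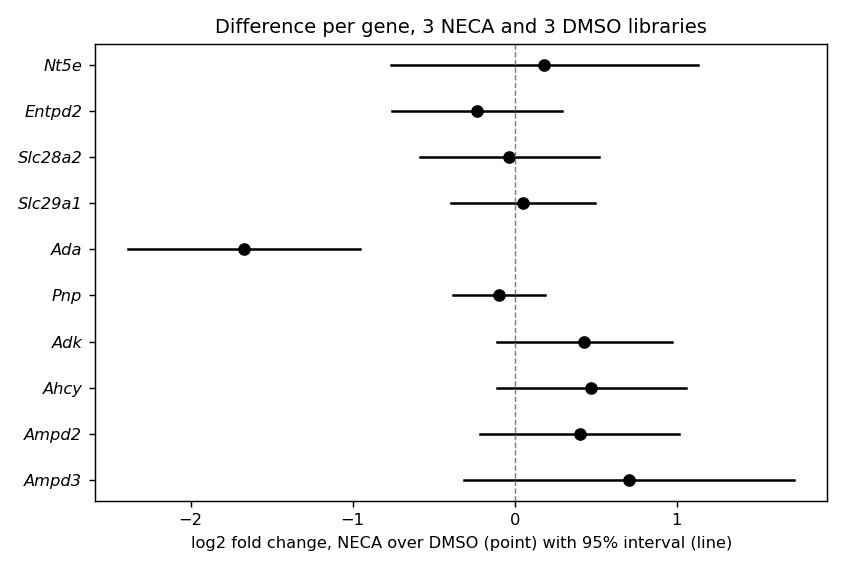
Log2 fold change of NECA over DMSO (x axis) for the 10 genes, as a point with its 95% interval from the edgeR fit. Only the interval of Ada, from -2.38 to -0.96, lies wholly on one side of 0. These intervals are not adjusted for the number of genes tested.

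Of the genes that produce adenosine outside the cell, Nt5e spread widely within NECA. Nt5e (ENSMUSG00000032420, chromosome 9, 88327197 to 88372092, GRCm38) was at 56.0, 23.9 and 86.5 CPM in the NECA libraries, against 41.6, 45.9 and 59.1 CPM in the DMSO libraries. NECA replicate 2 was the lowest of the 6 libraries and NECA replicate 3 the highest, so the NECA range took in the whole DMSO range. The log2 fold change was 0.18 (SE 0.41, interval -0.76 to 1.13, edgeR adjusted p = 0.897). It was 0.55 (SE 0.22) without NECA replicate 2 and -0.29 (SE 0.37) without NECA replicate 3.

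Entpd2 (ENSMUSG00000015085, chromosome 2, 25395874 to 25401321) encodes an ectonucleotidase that cuts ATP to ADP and is known in mice from glia of the gut wall. Its level was 35.3, 22.3 and 40.8 CPM in NECA, against 35.9, 38.7 and 41.1 CPM in DMSO. NECA replicate 2 alone was low, and the groups overlapped. The log2 fold change was -0.23 (SE 0.23, interval -0.76 to 0.29, edgeR adjusted p = 0.769), and -0.02 without NECA replicate 2. Of the exonic bases of Entpd2, 28.8% are shared on the same strand with Npdc1, a protein-coding gene with 553, 867 and 948 counts in NECA and 979, 1204 and 989 counts in DMSO, so reads could be counted for either gene. The 4 enteric glia markers summed to 12.4 to 18.1 CPM in NECA and 15.8 to 51.4 CPM in DMSO; their part in the Entpd2 values was not tested.

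The transporters differed by little between the groups. Slc28a2 (ENSMUSG00000027219, chromosome 2, 122426477 to 122461137) encodes CNT2, the sodium-driven carrier that prefers purine nucleosides. It was at 157, 116 and 160 CPM in NECA, against 142, 110 and 192 CPM in DMSO, and the groups overlapped, with a log2 fold change of -0.03 (SE 0.24, interval -0.58 to 0.52). Slc29a1 (ENSMUSG00000023942, chromosome 17, 45585200 to 45599606) encodes ENT1, which lets nucleosides cross the membrane down their gradient. It was at 29.4, 40.2 and 28.6 CPM in NECA, against 28.4, 36.9 and 29.5 CPM in DMSO, with a log2 fold change of 0.05 (SE 0.19, interval -0.39 to 0.50). In each group replicate 2 was the highest for Slc29a1 and the lowest for Slc28a2. The edgeR adjusted p was 0.973 for Slc28a2 and 0.942 for Slc29a1.

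The other concentrative carriers, of the Slc28 family, had few reads beside Slc28a2. Slc28a1 had 3 to 4 counts in NECA and 1 to 5 in DMSO, and Slc28a3 had 0 to 4 in NECA and 2 to 8 in DMSO. Slc28a2b, named Gm14085 in the files, had 1 to 5 counts in NECA and 1 to 7 in DMSO. Its coding sequence is 94.5% identical to that of Slc28a2 over 1980 bases, and 33.8% of all 50-base windows of the Slc28a2 coding sequence occur in it unchanged, so the division of reads between them is uncertain. Slc29a2 averaged 2.29 ± 0.751 CPM in NECA and 2.27 ± 0.0189 CPM in DMSO, and Slc29a3 averaged 20.3 ± 3.15 CPM in NECA and 20.5 ± 1.24 CPM in DMSO (SD, n = 3 per group). The first 90 coding bases of the near-identical pair are shown, from the GENCODE M21 transcripts, so that the 2 genes can be compared; capitals mark the bases that differ, 7 in this stretch.
Slc28a2: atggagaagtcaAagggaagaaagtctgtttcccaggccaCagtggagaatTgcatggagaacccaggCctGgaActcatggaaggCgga
Slc28a2b: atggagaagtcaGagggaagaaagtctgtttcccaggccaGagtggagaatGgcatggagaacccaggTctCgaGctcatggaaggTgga

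Ada (ENSMUSG00000017697, chromosome 2, 163726584 to 163750239), the deaminase that turns adenosine into inosine, was at 17.3, 10.9 and 24.7 CPM in NECA, against 66.0, 58.6 and 43.5 CPM in DMSO. The counts behind these values were 268, 218 and 430 in NECA and 1183, 876 and 695 in DMSO. Each NECA library lay below each DMSO library, and the nearest values were those of NECA replicate 3 and DMSO replicate 3. The means were 17.6 ± 6.91 CPM in NECA and 56.0 ± 11.5 CPM in DMSO (SD, n = 3 per group). The log2 fold change was -1.67 (SE 0.31, interval -2.38 to -0.96, edgeR adjusted p = 0.738). Its unadjusted p ranked 4 among the 15847 genes. DESeq2 gave -1.65 (SE 0.33, adjusted p = 0.0027); that call ended without DMSO replicate 1 (adjusted p = 0.555), without DMSO replicate 2 (0.118) and with the bowel position score as a covariate (0.062). In bulk tissue, fewer cells that express Ada and less Ada RNA per cell cannot be told apart.

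Among all genes of a library ordered by FPKM (fragments scaled by gene length and library size, the authors' value), Ada ranked 5275, 7120 and 4209 in NECA and 1709, 1899 and 2586 in DMSO. Every NECA library thus placed it lower than every DMSO library did.

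Levels of bowel position markers and of some cell types also varied between the libraries. The position score, the mean log2 CPM of 10 proximal markers minus that of 8 ileal markers, was 2.01, -5.53 and -0.80 in NECA and 3.23, 3.17 and -0.54 in DMSO, higher being more proximal. In the same order of replicates, Ada was at 17.3, 10.9 and 24.7 CPM in NECA and 66.0, 58.6 and 43.5 CPM in DMSO. Within each group the library with the lowest score, NECA replicate 2 and DMSO replicate 3, had the lowest Ada. DMSO replicate 1 had the highest score and the highest Ada of all libraries. NECA replicate 1 had the highest score in NECA but not the highest Ada. Whether bowel position bears on the Ada difference was not tested. The score served as a description and as a covariate. Once that score was a covariate, the log2 fold change was -1.28 (SE 0.28, edgeR adjusted p = 1.0), and without NECA replicate 2 it was -1.41 (SE 0.23, edgeR adjusted p = 0.737).

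**Figure D3:**
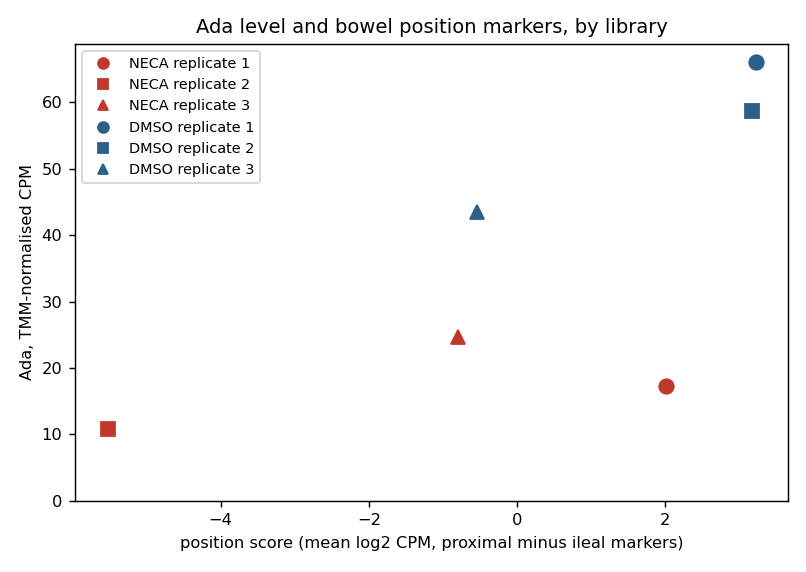
Ada level in TMM-normalised CPM (y axis, from 0) against the bowel position score (x axis, log2 units, higher is more proximal), 1 point per library. The NECA points lie between 10.9 and 24.7 CPM over scores from -5.53 to 2.01, and the DMSO points between 43.5 and 66.0 CPM over scores from -0.54 to 3.23.

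Adenosine deaminase is also known from lymphocytes. The markers of B cells were all lower in NECA in log2 fold change, 6 of 6 tested, with a sum of 8.66 to 18.7 CPM in NECA and 20.2 to 75.3 CPM in DMSO. So were 7 of 7 T cell markers, with a sum of 11.1 to 67.7 CPM in NECA and 59.8 to 108 CPM in DMSO, where the groups overlapped. Trac, a constant segment of the T cell receptor, made up most of that sum in all libraries but NECA replicate 2. The sum without Trac was taken after its values were seen, so its lack of overlap is no test. It was 8.66, 9.32 and 10.45 CPM in NECA and 16.01, 15.32 and 14.50 CPM in DMSO. Of the T cell markers only Cd4 lay fully apart, at 5.62, 3.79 and 6.49 CPM in NECA and 9.54, 7.09 and 10.5 CPM in DMSO. Over all genes 7.16% lay apart with NECA below. With edgeR 0 markers of either list passed the adjusted threshold. The direction was not particular to lymphocytes. By log2 fold change, 10 of 10 epithelial markers were higher in NECA, and 7 of 7 macrophage, 6 of 6 smooth muscle, 4 of 4 enteric glia, 4 of 4 enteric neuron and 4 of 4 endothelial markers were lower, 0 of them past the adjusted threshold with edgeR. The libraries of the groups overlapped in the sums of these lists, for macrophages at 239 to 583 CPM in NECA and 489 to 610 CPM in DMSO. Csf1r was the largest part of the macrophage sum, at 110 to 455 CPM in NECA and 292 to 382 CPM in DMSO. Among the macrophage markers Cd68, Cx3cr1 and Mrc1 lay fully apart with NECA below, and Csf1r, Adgre1, C1qa and C1qb overlapped. The part of any of these lists in the Ada difference was not tested.

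The colon list summed to 109 to 183 CPM in NECA and 212 to 389 CPM in DMSO, and its defining members were at or near 0: Hoxd13 had 0 counts in every library, and Hoxb13 had 28 counts in DMSO replicate 1 and 0 in the others. Of the 5 pancreas markers, Cela1 supplied nearly the whole sum, at 12.7, 4.29 and 25.9 CPM in NECA and 29.5, 34.4 and 31.4 CPM in DMSO, and the other 4 had at most 7 counts in any library. Whether either list bears on the Ada difference was not tested.

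Pnp (ENSMUSG00000115338, chromosome 14, 50931082 to 50965237) encodes the phosphorylase that acts on the inosine formed by Ada. It was at 101, 101 and 101 CPM in NECA, against 104, 109 and 112 CPM in DMSO, the steadiest of the 10 genes within a group. The groups did not overlap, but the log2 fold change was only -0.10 (SE 0.12, interval -0.38 to 0.19, edgeR adjusted p = 0.813). Its neighbour Pnp2 was at 44.8, 53.1 and 51.7 CPM in NECA, against 59.3, 73.7 and 58.8 CPM in DMSO, again with NECA below (log2 fold change -0.36, SE 0.15, edgeR adjusted p = 0.738). The coding sequences of Pnp and Pnp2 are 98.2% identical over 867 aligned bases, with an unbroken match of 292 bases, so the 2 values may share reads. Their sum was 146, 154 and 153 CPM in NECA and 163, 183 and 171 CPM in DMSO. A stretch of 90 coding bases near the start of each shows the likeness; the capital marks the base that differs.
Pnp: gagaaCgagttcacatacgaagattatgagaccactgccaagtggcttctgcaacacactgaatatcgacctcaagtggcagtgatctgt
Pnp2: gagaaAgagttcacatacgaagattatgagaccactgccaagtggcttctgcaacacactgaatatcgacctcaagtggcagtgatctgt

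Adk (ENSMUSG00000039197, chromosome 14, 21052574 to 21448569), which phosphorylates adenosine to AMP, was at 121, 151 and 153 CPM in NECA, against 109, 73.5 and 133 CPM in DMSO. NECA replicate 1 lay below DMSO replicate 3, so the groups overlapped, and DMSO replicate 2 was the lowest. The log2 fold change was 0.43 (SE 0.23, interval -0.11 to 0.97, edgeR adjusted p = 0.738), and 0.23 without DMSO replicate 2.

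Ada and Adk compete for the same substrate inside the cell, and their order by level per length was not the same in the groups. Ada was at 8.72, 5.37 and 12.3 FPKM in NECA and 32.7, 28.7 and 21.5 FPKM in DMSO, and Adk at 14.3, 17.5 and 17.9 FPKM in NECA and 12.6, 8.45 and 15.5 FPKM in DMSO. The ratio of Ada to Adk was thus 0.609, 0.306 and 0.686 in NECA, below 1 in all 3 libraries, and 2.58, 3.39 and 1.39 in DMSO, above 1 in all 3. The means were 0.534 ± 0.201 in NECA and 2.46 ± 1.01 in DMSO (SD, n = 3 per group). On the log2 scale NECA minus DMSO was -2.19, with a two-sided exact permutation p of 0.1, the smallest that 3 against 3 libraries can give. Whether the ratio lies above or below 1 depends on the gene lengths, with 2002 exonic bases for Ada and 8526 for Adk. In CPM, not divided by length, Adk was above Ada in every library. In DMSO Adk was at 109, 73.5 and 133 CPM, against 66.0, 58.6 and 43.5 CPM for Ada. The length divisor does not alter the difference between the groups.

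**Figure D4:**
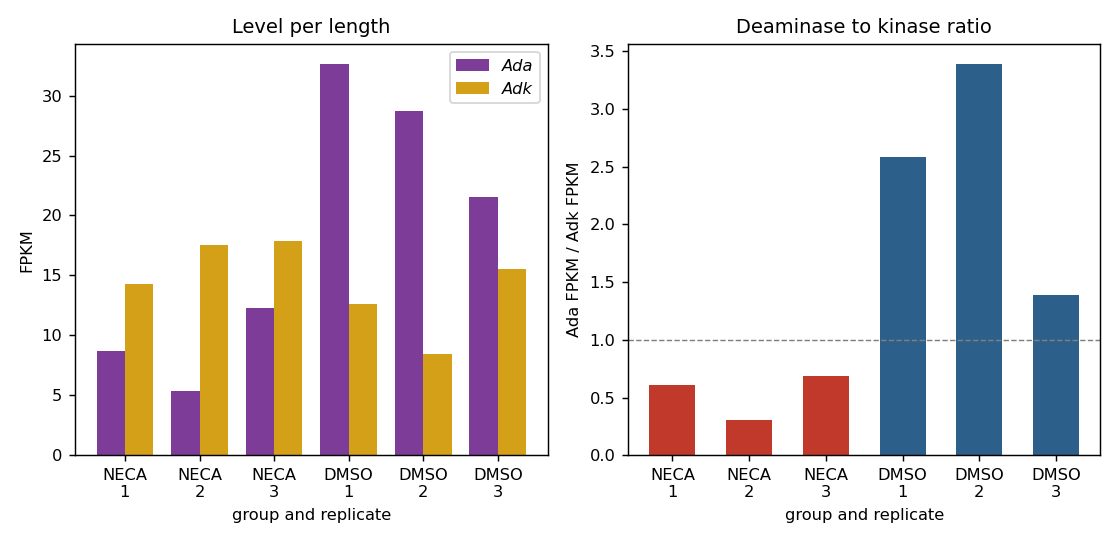
Left, FPKM of Ada (purple) and Adk (yellow) in each library; right, the ratio of Ada to Adk FPKM, with NECA bars in red, DMSO bars in blue and a dashed line at 1. Bars start at 0, and each is 1 library. The ratio is 0.306 to 0.686 in NECA and 1.39 to 3.39 in DMSO. Its place above or below 1 depends on the gene lengths.

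The 250 bases before the RefSeq start of Ada (GRCm38.p6, chr2:163750240-163750489, minus strand) and of the more upstream Adk start (chr14:21052324-21052573, plus strand) are shown for these 2 enzymes, with the GC box, GGGCGG or its reverse CCGCCC, in capitals. Ada has 1 such match and Adk has 2, and 32.7% of 32851 RefSeq promoter windows of this length hold at least 1. Neither window holds the cAMP response element TGACGTCA, on which signals of some adenosine receptors converge and which 1.55% of windows hold. Its half-site TGACG, or CGTCA on the other strand, occurs once for Adk, next to a GC box, and in 17.8% of windows. TATAAA or TTTATA occurs in neither and in 12.4% of windows.
Ada: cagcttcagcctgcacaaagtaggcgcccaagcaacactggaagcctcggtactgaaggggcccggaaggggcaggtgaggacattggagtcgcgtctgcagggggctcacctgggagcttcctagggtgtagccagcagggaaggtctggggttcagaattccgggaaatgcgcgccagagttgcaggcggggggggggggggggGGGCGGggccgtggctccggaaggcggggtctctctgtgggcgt
Adk: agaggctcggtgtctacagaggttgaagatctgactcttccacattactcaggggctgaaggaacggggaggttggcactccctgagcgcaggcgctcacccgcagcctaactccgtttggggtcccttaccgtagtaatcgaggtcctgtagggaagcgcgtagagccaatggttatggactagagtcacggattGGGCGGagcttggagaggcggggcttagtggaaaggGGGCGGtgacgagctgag

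Ahcy (ENSMUSG00000027597, chromosome 2, 155059310 to 155074497) splits S-adenosylhomocysteine, the product of methylation reactions, into homocysteine and adenosine. It was at 189, 290 and 196 CPM in NECA, against 196, 119 and 172 CPM in DMSO. NECA replicate 2 was the highest and DMSO replicate 2 the lowest, and the groups overlapped through NECA replicate 1 and DMSO replicate 1. The log2 fold change was 0.47 (SE 0.25, interval -0.11 to 1.06, edgeR adjusted p = 0.738), against 0.25 (SE 0.21) without NECA replicate 2 and 0.29 (SE 0.24) without DMSO replicate 2.

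The AMP deaminases take AMP away from adenosine formation by turning it into IMP. Ampd2 (ENSMUSG00000027889, chromosome 3, 108074062 to 108086651) was at 32.7, 53.1 and 27.2 CPM in NECA, against 24.2, 28.5 and 32.9 CPM in DMSO. Only NECA replicate 2 lay outside the DMSO range, and the log2 fold change was 0.40 (SE 0.26, interval -0.21 to 1.01, edgeR adjusted p = 0.738), against 0.07 (SE 0.18) without that library. Ampd3 (ENSMUSG00000005686, chromosome 7, 110768206 to 110812405), the form known from red blood cells, had the fewest reads of the 10 genes, with 61, 283 and 157 counts in NECA and 117, 62 and 95 counts in DMSO. Its level was 3.94, 14.1 and 9.01 CPM in NECA, against 6.53, 4.15 and 5.94 CPM in DMSO, so that NECA held both the lowest and the highest library. The log2 fold change was 0.71 (SE 0.44, interval -0.31 to 1.72, edgeR adjusted p = 0.738). It was 0.23 (SE 0.38) without NECA replicate 2, 1.06 (SE 0.31, edgeR adjusted p = 0.637) without NECA replicate 1 and -0.08 (SE 0.39) once the position score was a covariate. The same covariate gave log2 fold changes of 0.03 for Ampd2, 0.22 for Adk, 0.20 for Ahcy, -0.06 for Entpd2 and 0.41 for Nt5e. Ampd1, the form of skeletal muscle, had 0 counts in every library.

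Compared per length in FPKM, Ahcy was the highest of the 10 genes and Ampd3 the lowest in each of the 6 libraries. Mean FPKM in NECA ran from Ahcy at 79.9 ± 19.3 through Slc28a2 (34.3), Pnp (25.3), Adk (16.6), Entpd2 (15.4), Ada (8.79), Slc29a1 (8.14), Ampd2 (7.19) and Nt5e (6.44) to Ampd3 at 1.59 ± 0.887 (SD, n = 3). In DMSO it ran from Ahcy at 57.1 ± 14.1 through Slc28a2 (34.7), Ada (27.6), Pnp (26.8), Entpd2 (17.9), Adk (12.2), Slc29a1 (7.78), Nt5e (5.61) and Ampd2 (5.40) to Ampd3 at 0.973 ± 0.223 (SD, n = 3). In NECA the ranges of neighbours overlapped from Adk down to Nt5e. In DMSO they overlapped from Ahcy down to Pnp, between Adk and Slc29a1 and between Nt5e and Ampd2. The order within those runs is not settled, apart from Ahcy, the highest within each library.

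Among the other purine genes listed, 54 of 66 passed the expression filter and 0 passed the adjusted threshold with edgeR or DESeq2. Of the 54, 27 were higher and 27 lower in NECA, and their median log2 fold change was -0.0034. At an unadjusted p under 0.05 with edgeR, 5 of 54 were lower, against 3.03% of all genes, and 0 were higher, against 2.45%. In 10 of them every NECA library was below every DMSO library, against 7.16% of all genes, and in 2 every NECA library was above, against 6.49%.

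The 5 genes lower in NECA at an unadjusted p included Xdh and Pnp2 of purine breakdown. Xdh, the xanthine oxidoreductase that ends this route in uric acid, was at 255, 172 and 212 CPM in NECA, against 376, 277 and 281 CPM in DMSO, with each NECA library below each DMSO library. Its log2 fold change was -0.55 (SE 0.22, edgeR adjusted p = 0.738). Enpp1, which cuts ATP to AMP outside the cell, was at 60.5, 24.7 and 44.7 CPM in NECA, against 69.5, 69.7 and 71.2 CPM in DMSO (-0.70, SE 0.29), again without overlap. The others had few reads: Entpd3 averaged 1.67 ± 0.455 CPM in NECA and 3.63 ± 1.91 CPM in DMSO (-1.12, SE 0.44), both SD, n = 3 per group. Ak5, an adenylate kinase, had 9, 5 and 6 counts in NECA and 21, 18 and 10 counts in DMSO (-1.36, SE 0.48). All 5 had the edgeR adjusted p of 0.738.

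By list, purine breakdown and salvage had 2 of 6 tested genes higher and 4 lower (median log2 fold change -0.18). Its salvage enzymes Hprt and Aprt differed by 0.11 (SE 0.15) and -0.01 (SE 0.18). The list of extracellular ATP and AMP breakdown had 5 of 13 higher and 8 lower (median -0.08). There Alpi, the intestinal alkaline phosphatase, averaged 2019 ± 940 CPM in NECA and 2727 ± 195 CPM in DMSO, Entpd1 22.9 ± 1.79 CPM in NECA and 26.8 ± 3.71 CPM in DMSO, and Entpd8 54.3 ± 13.9 CPM in NECA and 57.2 ± 3.44 CPM in DMSO (SD, n = 3 per group). Dpp4, a peptidase that in humans holds adenosine deaminase at the cell surface, differed by 0.17 (SE 0.25). Intracellular handling of AMP had 4 of 13 higher and 9 lower (median -0.12). Purine synthesis had 10 of 13 higher and 3 lower (median 0.33), against 7764 of all 15847 tested genes higher. In each of those 10 genes NECA replicate 2 was the highest library, for Atic at 120 CPM against 63.2 and 64.4 CPM in the other NECA libraries. The methyl cycle around Ahcy had 3 of 5 higher and 2 lower (median 0.01). In the methyl cycle, the relatives Ahcyl1 and Ahcyl2 differed by -0.04 (SE 0.14) and 0.01 (SE 0.27). Transport had 3 of 4 higher and 1 lower (median 0.01). With edgeR 0 genes of any of these lists passed the adjusted threshold.

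**Figure D5:**
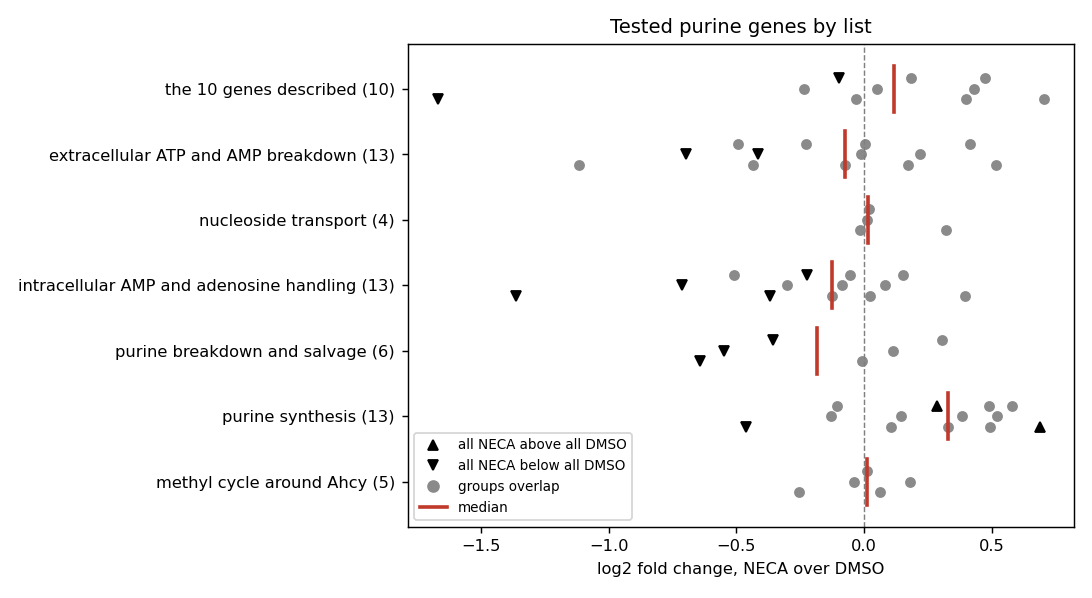
Log2 fold change of NECA over DMSO (x axis) for each tested gene of the 10 described and of the 6 other purine lists, with the number tested in brackets. Black triangles mark genes whose groups do not overlap, pointing up where NECA is above and down where it is below, grey points mark overlap, and red bars are medians. The leftmost triangle is Ada at -1.67.

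Over the 6 libraries, the genes whose log2 CPM followed Ada most closely among 9978 with a mean of at least 10 CPM were Mmp14, a membrane-bound matrix protease (Pearson r 0.99), Fkbp15 (0.99), Gramd3 (0.99), Eln, which encodes elastin (0.98), and Ssbp3 (0.98). These values describe 6 libraries that share the split into groups. Mmp14 was at 104, 96.6 and 114 CPM in NECA, against 142, 141 and 136 CPM in DMSO. Each of the 5 lay lower in the NECA libraries than in the DMSO libraries, with log2 fold changes from -0.58 to -0.09, smaller than that of Ada.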

How the data were processed

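The authors deposited, for each library, the raw count of each gene in whole numbers and its FPKM, per the file headers. Per the submitters' processing notes, HISAT, StringTie and edgeR and the builds mm10 and GRCm38 were used; their versions and settings, including strand and reads that match more than 1 place, were not given in the sources used here. Complementary DNA was made with SMARTer chemistry and amplified, per the labels' protocols, so reads are not independent molecules. The edgeR 4.0.16 filter filterByExpr (at least 10 counts, total at least 15) left 15847 genes including all 10 members. Counts were scaled by TMM and tested with the quasi-likelihood test in R 4.3.3, NECA against DMSO, without covariates (two-sided, Benjamini-Hochberg, threshold 0.05). SE is the fold change over the square root of F, and intervals use the fit's degrees of freedom. FPKM values served only for levels between genes and the ratio of Ada to Adk, with no pseudocount. DESeq2 1.42.0 was an alternative; adjusted p-values it left out stay out. Scripts were tested on simulated data. Coordinates are GENCODE M21 (GRCm38), promoters RefSeq GRCm38.p6; coding sequences were aligned with Biopython 1.88. Markers are lists from general knowledge, without the 10 genes. All 10 genes were named, with paralogs, other purine genes at an unadjusted p under 0.05 (up to 8), and the 5 genes most correlated with Ada. The members, lists and tests were chosen with earlier results of these data known.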

Additional observations from a re-analysis of the deposited data

How the results depend on the processing

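Each of the 10 genes was refitted under 19 alternatives, of which the DESeq2 fits without 1 library and with the position score were added after seeing the data. Ada stayed lower in NECA in all 19, from -1.99 to -1.26, and with edgeR its adjusted p ran from 0.12 (no filter) to 1.0 (position score). With edgeR, 0 of the 10 and 0 of the other purine genes passed under any alternative. Over all genes edgeR called 2 without the filter and 0 otherwise. DESeq2 called 9 genes over all and 1 of the 10, Ada. Without 1 library it called Ada without NECA replicate 1 (-1.64, adjusted p = 0.0456), replicate 2 (-1.40, 8.14e-05) and replicate 3 (-1.97, 4.03e-05) and without DMSO replicate 3 (-1.80, 0.00154), 1 of the 10 each time against 0.064%, 0.18%, 0.0188% and 0.454% of all genes, and 0 of the 10 without DMSO replicates 1 and 2. Its counts over all genes then ran from 2 (without DMSO replicate 1) to 90 (without DMSO replicate 3), with 17, 30 and 5 when NECA replicate 1, 2 or 3 was left out and 7 when DMSO replicate 2 was. It called 16 with the position score, when 0 of the 10 passed. DESeq2 called 0 of the other purine genes under each of these.

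The direction turned in 4 of the 10 genes. Without NECA replicate 3, Nt5e was at -0.29 (edgeR) and -0.27 (DESeq2); with each library left out in turn, its edgeR value ran from -0.29 to 0.55. With the position score, Ampd3 was at -0.075 and -0.056 and Slc29a1 at -0.11 and -0.081, edgeR first. Slc29a1 was at -0.12 and -0.11 without NECA replicate 2 and at -0.03 and -0.0018 without DMSO replicate 1. Slc28a2 was at 0.11 and 0.12 without NECA replicate 2 and at 0.20 and 0.22 without DMSO replicate 3, in an edgeR range of -0.21 to 0.20. The cause was not tested.

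The log2 ratio of Ada to Adk differed by -2.56 to -1.83 with each library left out in turn. With the replicate number as a block it was -2.19 (exact permutation p = 0.25, the smallest that 3 pairs allow). Same-numbered libraries did not deviate together (correlations 0.0087, -0.19 and -0.02 across genes), so the numbers were not taken as pairs; with the block, edgeR called 0 genes and Ada was at -1.73 (SE 0.34). DESeq2 size factors moved the median of all genes by 0.0094. The number of libraries, 3 in each group, limits these values.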
